A study of Homo sapiens with 6 samples.

Results

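Genes that encode the core proteins of proteoglycans were examined in LX-2 cells after silencing of OGT. The set was chosen by gene symbol and held 10 genes, namely BGN, DCN, LUM, VCAN, SDC1, SDC2, SDC3, SDC4, GPC1 and GPC6. Of these, 9 were among the 16907 genes with values and all 9 had enough counts to be tested, as did 14853 genes in all. DCN was not analysed here.

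LX-2 is an established human line of hepatic stellate cells, which become matrix-producing myofibroblasts in injured liver, so all samples share a single genetic background. Cells received 20 nM of a non-targeting small interfering RNA (siControl) or of a pool of small interfering RNAs against OGT (siOGT) for 72 h, and RNA was then sequenced. The control and the OGT reagents came from different suppliers, and both groups carried a transfected RNA. There were 3 biological replicates per group, and siControl and siOGT libraries with the same replicate number form a pair. OGT modifies nuclear and cytosolic proteins with O-linked N-acetylglucosamine.

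A proteoglycan is a core protein to which long sulphated sugar chains, the glycosaminoglycans, are attached in the secretory pathway. Decorin (DCN), biglycan (BGN) and lumican (LUM) are small leucine-rich proteoglycans that bind collagen fibrils, and versican (VCAN) is a large one that binds hyaluronan in the matrix. Syndecans (SDC1 to SDC4) cross the cell membrane and glypicans (GPC1, GPC6) are held on it by a lipid anchor, and the heparan sulphate chains of both bind growth factors and matrix proteins. Heparan sulphate is built in part from UDP-N-acetylglucosamine, which is also the sugar donor used by OGT. In scarred liver, proteoglycans accumulate together with collagens.

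Libraries held between 25996770 and 27966801 expected counts. OGT had 177, 137 and 121 CPM (counts scaled to library size with TMM factors) in siControl replicates 1, 2 and 3 and 40.0, 27.0 and 29.2 CPM in the paired siOGT libraries. The log2 fold change of OGT was -2.18 (SE 0.073, edgeR adjusted p = 2.712e-12). Among 10 stellate and myofibroblast markers, 6 reached 10 CPM on average. The 9 tested summed to 6470 to 7820 CPM in siControl and 5840 to 6870 CPM in siOGT. Of the 9 tested, 5 were called, with log2 fold changes of -0.39 for COL1A1, -0.32 for COL1A2, -0.64 for COL3A1 and -0.32 for PDGFRB, and 0.37 for TAGLN (edgeR adjusted p between 5.26e-05 and 0.0107). ACTA2, a contractile actin, had only 6.55 ± 2.72 CPM in siControl (SD, n = 3) and the muscle filament gene DES 0.135 ± 0.119 CPM. Of 7 hepatocyte markers with values, the 3 tested summed to 3.55 to 4.48 CPM in siControl and 3.58 to 3.67 CPM in siOGT. The 5 endothelial markers summed to 3.93 to 8.37 and 3.52 to 6.39 CPM, with VWF called lower (-0.93). Of 6 epithelial markers, the 4 tested summed to 88.7 to 128 and 91.4 to 129 CPM, most of it SOX9. Of 6 immune markers with values, the 5 tested summed to 132 to 164 CPM in siControl and 178 to 209 CPM in siOGT. Most of this was the lysosomal gene CD68, which was called higher (0.46). PTPRC, the pan-leukocyte marker, had 0.536 ± 0.188 CPM in siControl. The part of these markers in the results below was not tested.

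With the replicate number as a block, 4 of the 9 genes tested were called lower in siOGT, namely SDC1, SDC3, SDC4 and GPC1. None was called higher. At an unadjusted p of at most 0.05 edgeR also gave 0 of them higher, against 2764 of the 14853 genes tested. A gene was called at an adjusted p of at most 0.05 in the quasi-likelihood F test of edgeR. Over all genes tested, 25.4% were called, 12.7% lower and 12.7% higher, against 44.4% called lower among the proteoglycan genes. The median log2 fold change was -0.35 over the 9 genes and 0.0068 over all genes tested. The called genes were among the 5 proteoglycan genes that averaged 10 CPM or more, and 16.2% of all genes at that level were called lower. The remaining 4 genes had means of at most 8.47 CPM. Without the replicate block edgeR called 0 of the 9 genes lower, against 0.397% of all genes. At an unadjusted p of at most 0.05 it then had 3 of the 9 lower, against 1325 of the 14853 genes tested. With the block DESeq2 called the same 4 genes, against 10.3% called lower of the 12549 genes it gave an adjusted p. Without the block it called only SDC4, against 3.67% of 12549 genes. DESeq2 gave BGN and LUM no adjusted p. In bulk RNA, fewer cells of a type and less RNA per cell cannot be told apart.

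The stretches of 250 bases before the start sites of SDC4, SDC3 and GPC1 are shown because these genes were called in the same direction. That of SDC1 is not shown, since the annotated gene reaches past it and RefSeq gives 2 start sites for it. Sequences are from RefSeq (GRCh38.p14), 5′ to 3′ on the gene's strand, and end at the base before the start site. Capitals mark GC boxes, the letters GGGCGG or CCGCCC on the strand shown, with boxes that share a base each counted. The SDC4 stretch is at chr20:45348425-45348674 on the minus strand, that of SDC3 at chr1:30908759-30909008 on the minus strand and that of GPC1 at chr2:240435413-240435662 on the plus strand.
SDC4: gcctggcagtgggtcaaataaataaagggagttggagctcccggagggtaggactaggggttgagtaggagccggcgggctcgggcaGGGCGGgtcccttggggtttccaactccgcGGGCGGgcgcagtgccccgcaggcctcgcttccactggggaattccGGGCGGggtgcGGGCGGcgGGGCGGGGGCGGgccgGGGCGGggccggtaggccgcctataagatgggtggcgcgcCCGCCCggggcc
SDC3: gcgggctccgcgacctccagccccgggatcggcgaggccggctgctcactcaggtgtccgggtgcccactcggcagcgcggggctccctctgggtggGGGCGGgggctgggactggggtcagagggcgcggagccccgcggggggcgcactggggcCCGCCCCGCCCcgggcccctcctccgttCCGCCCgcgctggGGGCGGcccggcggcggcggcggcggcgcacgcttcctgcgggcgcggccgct
GPC1: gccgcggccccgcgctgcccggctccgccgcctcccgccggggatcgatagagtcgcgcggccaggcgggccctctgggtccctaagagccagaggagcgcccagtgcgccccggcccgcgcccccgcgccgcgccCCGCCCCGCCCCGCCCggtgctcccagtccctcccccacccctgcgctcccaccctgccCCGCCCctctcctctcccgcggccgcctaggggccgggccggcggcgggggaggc

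The SDC4 stretch held 8 GC boxes, a number reached by 0.584% of the 35116 stretches of the same length before human start sites. SDC3 held 5, reached by 4.15%, and GPC1 held 4, reached by 7.63%. SDC1, the remaining called gene, held 1 before the start of its representative transcript, reached by 42.6%. Among the genes not called, BGN held 5, VCAN 1 and GPC6 0, so the number of boxes did not separate called from uncalled genes. LUM and SDC2 had no entry in the table used. Neither the TEAD core GGAATG nor the AP-1 site TGANTCA nor the E-box CACGTG, each searched on both strands, was found before any of the 7 genes, while 11.9%, 6.57% and 6.34% of all stretches held them. The TATA box letters TATAAA occurred once, before GPC6, against 10.7% of all stretches. G and C made up 73.6% of the stretch of SDC4, 83.6% of SDC3, 84.0% of GPC1 and 75.2% of SDC1. Among the genes not called they made up 74.0% for BGN, 60.8% for VCAN and 37.6% for GPC6. The shares over all stretches were not matched for base composition. These matches describe letters and not binding.

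Among the syndecans, SDC4 had the largest estimated change. SDC4 (chr20:45325288-45348424, minus strand, hg38, 5 exons) is found at focal adhesions, where it acts with integrins. It had 115, 124 and 117 CPM in siControl replicates 1, 2 and 3 and 83.2, 91.9 and 87.1 CPM in siOGT. Every siOGT library was below every siControl library, which held for 2 of the 9 proteoglycan genes and for 11.8% of all genes tested. The means were 118.8 ± 4.70 and 87.4 ± 4.36 CPM (SD, n = 3 each), with a log2 fold change of -0.44 (SE 0.063; 95% confidence interval, -0.58 to -0.31; edgeR adjusted p = 8.01e-05). The 3 pairs were nearly alike, with 72.1%, 74.0% and 74.4% of the siControl level. Without the replicate block the edgeR adjusted p was 0.0502 and the DESeq2 adjusted p was 4.21e-04.

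SDC1 (chr2:20200797-20225433, minus strand) is the syndecan of epithelia and plasma cells. SDC1 had 211, 196 and 208 CPM in siControl and 177, 174 and 142 CPM in siOGT. Again the groups did not overlap, and siOGT replicate 3 was the lowest library. The means were 204.9 ± 7.56 and 164 ± 19.0 CPM, with a log2 fold change of -0.32 (SE 0.074; 95% confidence interval, -0.48 to -0.17; edgeR adjusted p = 0.0037). In contrast to SDC4 the size differed between the pairs, with 83.8%, 88.5% and 68.6% of the siControl level. Leaving out replicate 3 gave -0.22 and an edgeR adjusted p of 0.0157. Without the replicate block the edgeR adjusted p was 0.154.

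SDC3 (chr1:30869466-30908758, minus strand) is best known from the nervous system. SDC3 had 247, 311 and 216 CPM in siControl and 192, 255 and 165 CPM in siOGT. The groups overlapped, because replicate 2 was highest and replicate 3 lowest in both, and each siOGT library was below its own siControl library. The means were 258 ± 48.3 and 204 ± 46.3 CPM, with a log2 fold change of -0.35 (SE 0.064; 95% confidence interval, -0.48 to -0.21; edgeR adjusted p = 8.1e-04). The siOGT libraries kept 77.6%, 82.1% and 76.3% of the paired siControl level. Without the block, in which this shared order counts as spread, the edgeR adjusted p was 0.333.

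SDC2 (chr8:96493813-96611790, plus strand), the syndecan of fibroblasts and other mesenchymal cells, was the syndecan that was not called. SDC2 had 55.0, 56.0 and 40.5 CPM in siControl and 41.9, 48.7 and 46.0 CPM in siOGT. It was lower in pairs 1 and 2 and higher in pair 3, whose siControl library was the lowest of all 6. Its log2 fold change was -0.14 (SE 0.089, 95% interval -0.32 to 0.05, edgeR adjusted p = 0.283). Leaving out replicate 3 gave -0.30 with an edgeR adjusted p of 0.0095, so that 5 of the 8 genes tested in that fit were called lower, against 12.4% of all genes.

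Whether SDC2 differed from the other syndecans was examined after these values had been seen. The log2 ratio of SDC4 within a pair minus that of SDC2 was -0.081, -0.23 and -0.61, on average -0.31 ± 0.27 (SD, n = 3 pairs; two-sided exact sign-flip permutation p = 0.25, adjusted over 3 comparisons 0.75). For SDC3 minus SDC2 the mean was -0.21 ± 0.32 (exact permutation p = 0.5, adjusted 0.75) and for SDC1 minus SDC2 it was -0.19 ± 0.47 (exact permutation p = 1, adjusted 1). With 3 pairs the smallest p this test can give is 0.25. The test could therefore not decide whether SDC2 differed. Neither a difference between SDC2 and the other syndecans nor a like change was shown.

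**Figure D1:**
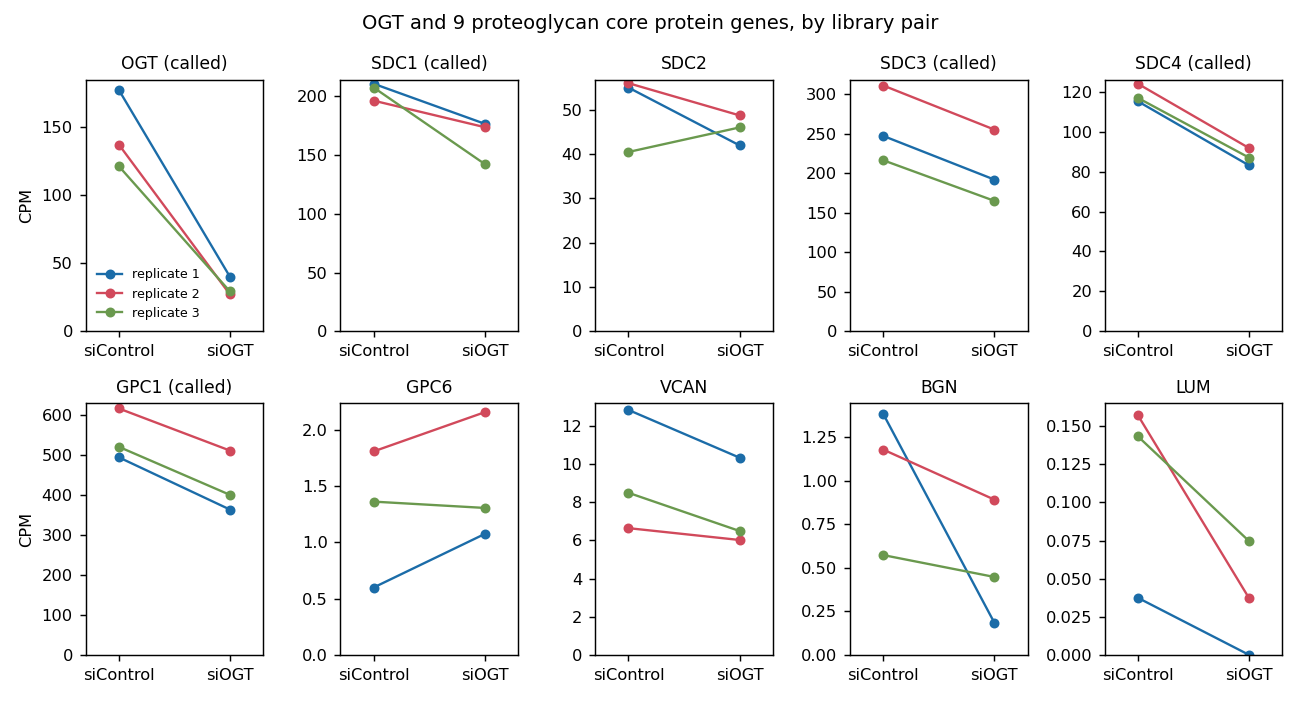
Level of OGT and of the 9 proteoglycan core protein genes in each library, in CPM on an axis from 0 (each panel has its own scale), with lines joining the siControl and siOGT libraries of a replicate. "Called" marks genes with an edgeR adjusted p of at most 0.05; the 3 lines of SDC4 fall side by side, to 72.1%, 74.0% and 74.4% of siControl, while those of SDC2 cross.

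Among the glypicans of the set GPC1 was called and GPC6 was not, and GPC1 was the most abundant of the 9 genes. GPC2, a glypican outside the set, was also called lower, from 0.97 ± 0.54 to 0.31 ± 0.077 CPM. Its log2 fold change was -1.55 (edgeR adjusted p = 0.0314), at few counts and lower in only 2 pairs. GPC1 (chr2:240435663-240468076, plus strand, 9 exons) encodes a glypican that presents growth factors to their receptors. GPC1 had 495, 617 and 521 CPM in siControl and 364, 512 and 401 CPM in siOGT. As with SDC3, siOGT replicate 2 reached into the siControl range while every pair was lower in siOGT. The means were 544 ± 64.4 and 425 ± 76.9 CPM, with a log2 fold change of -0.36 (SE 0.067; 95% confidence interval, -0.50 to -0.22; edgeR adjusted p = 7.71e-04). The siOGT libraries kept 73.6%, 82.9% and 76.9% of the paired level. Without the replicate block the edgeR adjusted p was 0.220.

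GPC6 (chr13:93226807-94408020, plus strand) was near the lower end of detection. GPC6 had 16, 46 and 38 counts in siControl and 29, 58 and 35 in siOGT, or 1.26 ± 0.611 and 1.51 ± 0.569 CPM. It was higher in pairs 1 and 2 and slightly lower in pair 3, and the groups overlapped. Its log2 fold change was 0.30 (SE 0.29, 95% interval -0.32 to 0.91, edgeR adjusted p = 0.502).

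The matrix proteoglycans of the set, VCAN, BGN and LUM, were low in this cell line, and none was called. This does not extend to matrix proteoglycans outside the set, of which HSPG2 and COL18A1 are described below. VCAN (chr5:83471618-83582303, plus strand), which loosens the matrix around migrating cells, had 343, 169 and 237 counts in siControl and 279, 162 and 174 in siOGT. This corresponded to 9.32 ± 3.18 and 7.61 ± 2.36 CPM, and the groups overlapped although every pair was lower in siOGT. The log2 fold change of VCAN was -0.29 (SE 0.12, 95% confidence interval -0.53 to -0.041), with an unadjusted p of 0.0247 and an edgeR adjusted p of 0.0816. The paired siOGT libraries had 80.5%, 90.7% and 76.4% of the siControl level.

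BGN (chrX:153494980-153509546, plus strand), which in addition to binding collagen can signal to immune cells when released, had 37, 30 and 16 counts in siControl and 5, 24 and 12 in siOGT. The 5 counts of siOGT replicate 1 lay apart from the others, and the remaining siOGT libraries were within the siControl range or just below it. The log2 fold change of BGN was -1.07 (SE 0.46, 95% confidence interval -2.04 to -0.096, edgeR adjusted p = 0.101). It rested on pair 1, since it was -0.38 (adjusted p = 0.689) without replicate 1, against -1.55 (0.0511) without replicate 2 and -1.33 (0.0712) without replicate 3, all from edgeR. LUM (chr12:91102629-91111494, minus strand), which sets the spacing of collagen fibrils, had 1, 4 and 4 counts in siControl and 0, 1 and 2 in siOGT. With 9 against 3 counts in all, the ratio of siOGT to siControl was 0.336, with an exact 95% counting interval of 0.0585 to 1.35. No difference in LUM was detectable at this depth.

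Counting direction alone, 7 of the 9 genes were lower in all 3 pairs, as were 26.6% of all genes tested. The exceptions were SDC2 and GPC6. The estimates of the 4 called genes lay between -0.44 and -0.32, and their 95% confidence intervals overlapped one another.

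**Figure D2:**
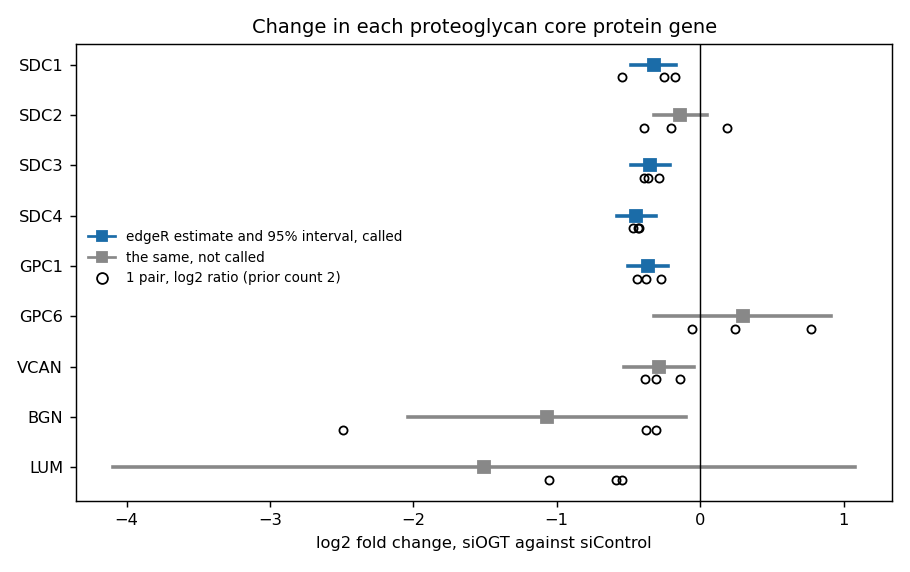
Log2 fold change of siOGT against siControl for the 9 genes on the horizontal axis, with squares for the edgeR estimate, bars for its 95% confidence interval and open circles for the 3 pairs. Blue marks called genes, whose estimates gather between -0.44 and -0.32; the bars of BGN and LUM, at few counts, are several times wider.

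Levels were compared between genes as CPM per kilobase of the representative transcript. In siControl, GPC1 had the highest level (146 ± 17.3 CPM per kilobase), followed by SDC1 (64.8 ± 2.39), SDC3 (49.2 ± 9.20), SDC4 (45.5 ± 1.80) and SDC2 (15.3 ± 2.63). The libraries of SDC3 and SDC4 overlapped, and their order turned when the summed exon length was used, which gave SDC3 36.5, or the longest transcript, which gave it 40.4. Well below came VCAN (0.755 ± 0.257 CPM per kilobase), BGN (0.444 ± 0.179), GPC6 (0.176 ± 0.0858) and LUM (0.0422 ± 0.0245). VCAN overlapped with BGN and BGN with GPC6. The syndecans and GPC1 stood above the matrix proteoglycans of the set, and the fibril-binding BGN and LUM were at the bottom with the glypican GPC6.

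The cell-surface genes above 10 CPM, SDC1 to SDC4 and GPC1, summed to 321 ± 26.6 CPM per kilobase in siControl and 252 ± 33.5 in siOGT, out of 322.5 ± 26.6 and 253.5 ± 33.6 for all 9 genes. This sum stood at 76.4%, 82.8% and 76.1% of its siControl value by pair. Its make-up moved little, with shares of the 9 genes' level of 45.3% and 45.0% for GPC1, 20.2% and 20.6% for SDC1, 15.2% and 15.2% for SDC3, 14.1% and 13.3% for SDC4 and 4.73% and 5.47% for SDC2 in siControl and siOGT. The shares themselves depended on the transcript length used. With the summed exon length they were 35.3% and 35.1% for GPC1, 24.2% and 24.7% for SDC1 and 19.3% and 18.2% for SDC4.

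**Figure D3:**
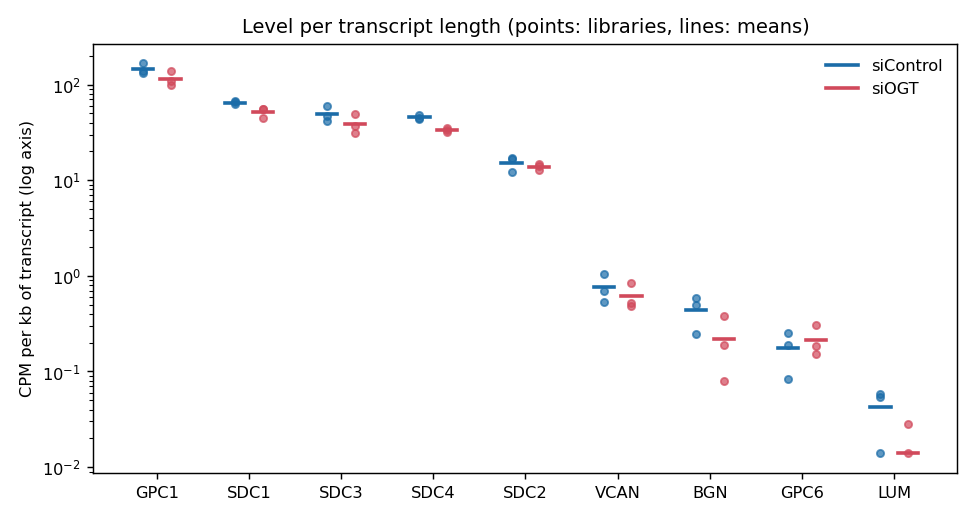
Level per kilobase of representative transcript on a logarithmic axis, with 1 point per library and lines at the group means, genes ordered by their siControl mean. The cell-surface genes from GPC1 (146) to SDC2 (15.3) stand above VCAN, BGN, GPC6 and LUM, all under 1 on average; siOGT replicate 1 of LUM was at 0 and has no point.

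The genes with the profile most like that of a member were sought for SDC4, BGN and LUM, which had the largest estimates. Likeness was the Euclidean distance between log2 CPM profiles over the 6 libraries, each gene centred on its own mean, among 9615 genes of at least 10 CPM. Nearest to SDC4 were MDFIC (0.0495), H6PD (0.0651) and UGDH (0.0723). These profiles include the difference between siControl and siOGT, and each of these genes was called lower (-0.44, -0.40 and -0.44). How near the closest genes of other genes lie was not examined. UGDH makes UDP-glucuronic acid, a building block of glycosaminoglycans. Nearest to BGN were METTL7A (1.04), COL3A1 (1.11) and MYO7A (1.12), and nearest to LUM were TMEM98 (0.46), CSRP2 (0.49) and CABYR (0.523). COL3A1 encodes the fibrillar collagen type III. The distances of BGN and LUM were larger, and both profiles rest on few counts.

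Other genes of proteoglycan biology were described from 6 lists. Of 92 genes listed, 71 were tested, of which 22 (31.0%) were called lower, 6 (8.45%) higher and 43 were not called, against 12.7% lower and 12.7% higher over all genes, with a median log2 fold change of -0.12. Without the replicate block edgeR called 0 of the 71 (0.397% lower and 0.478% higher over all genes). The edgeR adjusted p of the 17 called genes named below for the size of their change then lay between 0.0511 (FAM20B) and 0.576 (SULF2). At an unadjusted p of at most 0.05 edgeR without the block had 13 lower and 3 higher, against 1325 and 1366 of the 14853 genes tested. DESeq2 gave 12 lower and 3 higher with the block, and 4 and 0 without it. The shares were 10.3% and 8.9% with the block, and 3.67% and 3.09% without it, of the 12549 genes DESeq2 gave an adjusted p. When replicate 1 was left out, edgeR called 9 lower and 0 higher, against 6.54% and 5.94% of all genes. At an unadjusted p of at most 0.05 it then had 22 lower and 5 higher, against 1915 and 1896 of 14456 genes.

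Of 14 other core proteins tested, 4 were called lower and 2 higher, with a median of -0.059. COL18A1, whose product is a collagen of basement membranes that carries heparan sulphate, had 167 ± 25.5 CPM in siControl and 96.4 ± 23.0 in siOGT (log2 fold change -0.81, SE 0.079, edgeR adjusted p = 2.34e-06), an estimate beyond those of the called syndecans and GPC1. HSPG2, which encodes the basement membrane proteoglycan perlecan, fell from 261 ± 47.7 to 179 ± 37.8 CPM (-0.55, edgeR adjusted p = 5.70e-05). ESM1, the small secreted dermatan sulphate proteoglycan endocan, went the other way, from 3.80 ± 1.44 to 7.38 ± 3.99 CPM (0.90, edgeR adjusted p = 0.00158). Without replicate 1 ESM1 was no longer called (0.53, edgeR adjusted p = 0.0887). CSPG4, the other gene called higher, went from 643 ± 86.9 to 749 ± 101 CPM (0.22, edgeR adjusted p = 0.0391). Its pairs had 121%, 130% and 100% of the siControl level. Without replicate 1, 0 of these core proteins were called higher.

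Among 6 enzymes that build the linker between core protein and chain, 2 were called lower and 0 higher, with a median of -0.13. FAM20B, the kinase that phosphorylates the linker xylose, had 62.8 ± 0.787 CPM in siControl and 45.9 ± 2.75 in siOGT (-0.45, edgeR adjusted p = 1.33e-04), and the groups did not overlap. XYLT2, a xylosyltransferase that starts the chain, had 70.9 ± 4.94 and 61.0 ± 1.89 CPM (-0.22, edgeR adjusted p = 0.0309). XYLT2 was no longer called without replicate 1 (0.105) and without replicate 3 (0.130), nor by DESeq2 with the block (0.0751).

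Of 16 heparan sulphate enzymes, 6 were called lower and 1 higher, with a median of -0.19, and without replicate 1 these were 2 and 0. SULF2, which removes sulphate from finished chains outside the cell, had 79.7 ± 40.6 CPM in siControl and 54.9 ± 30.7 in siOGT (-0.55, edgeR adjusted p = 5.32e-05). Its spread within groups exceeded the difference, and the change was seen only within pairs. HPSE, the heparanase that cuts the chains, had 9.90 ± 2.36 and 7.48 ± 2.60 CPM (-0.42, edgeR adjusted p = 0.0135), and GLCE, the epimerase that makes iduronic acid, had 78.9 ± 6.11 and 63.3 ± 14.4 CPM (-0.33, edgeR adjusted p = 0.00426). Both calls were lost without replicate 1, with edgeR adjusted p of 0.126 and 0.0551, and DESeq2 with the block did not call HPSE (0.0876). The chain polymerases EXT1 and EXT2 were not called (0.13 and -0.15, edgeR adjusted p = 0.141 and 0.114).

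The 15 chondroitin and dermatan sulphate enzymes had a median of 0.047, with 3 called lower and 2 higher, and 1 and 0 without replicate 1. The sulphotransferases CHST15 and CHST14 had log2 fold changes of -0.40 (edgeR adjusted p = 0.00301) and -0.36 (0.00252), and CSGALNACT2, which starts chondroitin chains, had 0.25 (0.0343). Without replicate 1 the adjusted p of CHST14 was 0.0591 and that of CSGALNACT2 0.145, and without replicate 2 that of CSGALNACT2 was 0.296. DESeq2 with the block did not call CSGALNACT2 either (0.125).

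Among 10 genes that supply sugar and sulphate donors, 4 were called lower and 1 higher, with a median of -0.20. UGDH had 34.5 ± 0.988 CPM in siControl and 25.5 ± 1.86 in siOGT (-0.44, SE 0.075, edgeR adjusted p = 4.09e-04), and the groups did not overlap. The sulphate transporter SLC26A2 had -0.30 (edgeR adjusted p = 0.00974) and SLC35D1, which carries UDP-sugars into the secretory pathway, 0.30 (0.0177). Leaving out replicate 1 ended both calls (0.0540 and 0.106), as leaving out replicate 2 did for SLC35D1 (0.0571), and left 1 lower and 0 higher in the list, while 2 were lower without replicate 3. With the block, DESeq2 called neither transporter (0.0527 and 0.111).

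Of 10 proteases and partners of proteoglycans, 3 were called lower and 0 higher, with a median of -0.036, and all 3 are versican-cleaving metalloproteinases of the ADAMTS family. ADAMTS4 had -0.48 (edgeR adjusted p = 0.0471), ADAMTS1 -0.31 (0.00405) and ADAMTS15 -0.28 (0.0145). The calls of ADAMTS4 and ADAMTS15 were lost without replicate 1 (0.0741 and 0.126) and without replicate 3 (0.270 and 0.0504), and in DESeq2 with the block (0.189 and 0.0651). The sheddases ADAM10 and ADAM17, which release syndecan ectodomains, were not called (-0.064 and 0.15, edgeR adjusted p = 0.546 and 0.145).

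**Figure D4:**
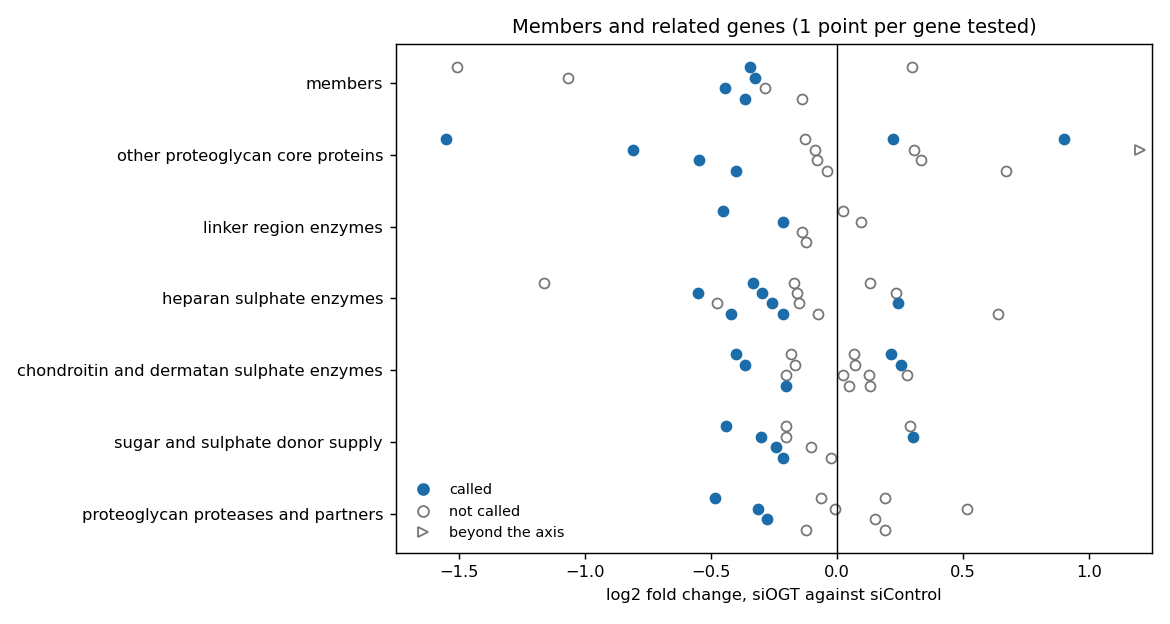
Log2 fold change of siOGT against siControl on the horizontal axis for each gene tested in the 9 proteoglycan core proteins (top) and the 6 related lists, filled where called. Called genes lie on both sides of 0 in 4 of the 6 lists and only below 0 among the 9 genes, the linker enzymes and the proteases; 1 gene, NCAN, is beyond the axis and not called.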

How the data were processed

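RNA-seq libraries of LX-2 cells were used (3 siControl, 3 siOGT). Per the study's methods, the authors sequenced oligo-dT selected RNA with a stranded kit and processed it with Bowtie2 2.3.5.1 and RSEM 1.3.1 against hg38. The values the authors deposited are RSEM expected counts per gene, not normalized, in which reads matching several genes are divided, and 85.82% to 87.71% per library were whole numbers. A deposited table of the authors' own comparison (DESeq2 1.36.0; fold changes and adjusted p-values) was not used.

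Expected counts were rounded, genes with a total below 10 removed (2054 genes, 0.00447% of counts) and libraries scaled with TMM factors (0.979 to 1.02). Genes were tested with edgeR 4.0.16 (R 4.3.3), two-sided quasi-likelihood F test, replicate number as a block, Benjamini-Hochberg adjustment over 14853 genes. Log2 ratios within pairs use a prior count of 2. The pairing comes from the study's methods, and deviations from group means correlated between paired libraries by 0.688, 0.525 and 0.332 across 12373 genes, which are not independent replicates. Libraries of a group differed by more than sampling noise (chi-square per degree of freedom at least 19.4). Intervals on counts cover counting error only. Scripts were tested on simulated data.

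The genes and lists were chosen with earlier results of these data known. Named besides them were, per related list, up to 3 called genes with the largest log2 fold change (mean of 1 CPM or more, every pair moving the same way), and the 3 genes nearest in profile to the 3 proteoglycan genes with the largest log2 fold change. EXT1, EXT2, ADAM10, ADAM17, NCAN, GPC2, CSPG4 and the marker genes were named after their values were seen. Coordinates are from GENCODE 44 (hg38). Exons of VCAN and GPC6 overlap antisense RNAs over 3.1% and 7.2% of their length, with strand-specific counting. Alternatives were DESeq2 1.42.0, no block, other scaling, other filters, each replicate left out and other transcript lengths.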

Additional observations from a re-analysis of the deposited data

How the results depend on the processing

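Most of the calls depended on the replicate block. Without it, edgeR called 130 genes in place of 3766 (71 higher in place of 1885, 59 lower in place of 1881), 0 of the 9 proteoglycan genes, and 0 lower and 0 higher among the related lists (22 and 6 with the block). The log2 fold changes then were -0.32 for SDC1 (adjusted p = 0.154), -0.34 for SDC3 (0.333), -0.44 for SDC4 (0.0502) and -0.36 for GPC1 (0.220). DESeq2 called 2415 genes with the block (1117 higher) and 849 without it (388 higher, 461 lower). It called 12 related genes lower and 3 higher with the block, and 4 and 0 without it. Without it, DESeq2 called 1 proteoglycan gene lower, SDC4 (-0.45, DESeq2 adjusted p = 4.21e-04). DESeq2 then gave -0.32 for SDC1 (0.0715), -0.34 for SDC3 (0.263) and -0.36 for GPC1 (0.122). The cause was not tested.

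Leaving out each replicate gave 1803 to 3439 genes called (858 to 1652 higher, 945 to 1787 lower), 4 to 5 proteoglycan genes called lower, and 9 to 23 related genes lower and 0 to 6 higher, with the lowest values without replicate 1. The log2 fold change of SDC2 ranged from -0.30 to -0.012 and was called only without replicate 3. LUM had fewer than 10 counts without replicate 2 or 3, was removed by the filterByExpr filter and has no value there. Other scaling and filters changed no call of the 9 genes where they were tested. With library totals alone XYLT2 (adjusted p = 0.0515) and ADAMTS4 (0.0613) were not called, nor was ADAMTS4 after the filterByExpr filter (0.0541).

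Levels per kilobase moved with the transcript length. The summed exon length gave 56.7 for SDC1, 12.4 for SDC2, 36.5 for SDC3 and 83.4 for GPC1, and the longest transcript gave 62.3 for SDC1. Depth limits BGN, GPC6 and LUM, and with 3 pairs an exact test within pairs cannot go below p = 0.25.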
